A study of Citrus maxima and Citrus sinensis with 8 samples.

Results

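A set of 61 genes was read in every leaf library of Citrus grandis (pummelo) and was at or near 0 in every leaf library of Citrus sinensis (sweet orange). They were chosen by their levels: at least 1 FPKM in each of the 4 C. grandis libraries and below 0.1 FPKM in each of the 4 C. sinensis libraries. FPKM scales the fragments on a gene by its length and by the reads of the library. The 61 genes are 0.421% of the 14497 genes that reached 1 FPKM in each C. grandis library, out of 30297 IDs listed. The reverse choice, at least 1 FPKM in each C. sinensis library and below 0.1 FPKM in each C. grandis library, held 330 genes, or 2.21% of the 14924 that reached 1 FPKM in each C. sinensis library. The contrast between the species is what chose the genes, so it is described here and not tested.

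The libraries were made from leaves of seedlings of both species, kept as controls or given aluminium for 18 weeks. The organism label of the C. grandis libraries uses the name Citrus maxima. Each of the 4 groups had 2 libraries, and each library came from a pool of leaves from 5 seedlings grown in separate pots. The sources used here give neither the aluminium dose nor the varieties. Whole reads recovered from the FPKM gave library totals of 16443205 to 19794247 reads. Leaves hold many cell types, and in such bulk RNA fewer cells of a type and less RNA per cell cannot be told apart.

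Aluminium becomes soluble in acid soils and harms roots first, while leaves respond later, as nutrient uptake, water supply and photosynthesis are disturbed. Closely related plant genomes share most genes but differ in some that are present in only one of them, often as members of families that lie side by side. Transcripts read in only one of 2 related species can also stem from a gene that is silent in the other, or from a sequence that has changed so far that its reads are no longer placed. In these data reads of both species were counted on 1 list of IDs, and these possibilities cannot be told apart. No annotation was used here and the files pair no ID with a gene name, so genes are given by ID and no function is assigned to any of them.

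Most of the 61 genes stood at low to middling levels in C. grandis. Their means over the 4 libraries ran from 1.24 to 59.6 FPKM, with a median of 4.41 and quartiles at 2.74 and 7.96 FPKM. All genes that reached 1 FPKM in each C. grandis library had a median of 15.2 FPKM. A mean of at least 10 FPKM was reached by 11 of the 61 genes (18.0%) and by 62.4% of the genes with at least 1 FPKM in each C. grandis library. The counts behind the values were between 35 and 4802 reads per gene over the 4 C. grandis libraries, with a median of 235, and 11 genes had under 100 reads. Together the 61 genes took 0.0408% to 0.0548% of the reads of each C. grandis library.

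The 5 genes with the highest means over the 4 libraries held 42.4% of the summed level of the set. orange1.1t02085 stood at 44.6 and 129.7 FPKM in the control libraries of C. grandis and at 29.8 and 34.4 FPKM in the aluminium libraries. Both aluminium libraries lay below both controls, but the controls were also far from each other. Its mean of 59.6 FPKM was the highest, but without control replicate 2 it was 36.3 FPKM, below Cs3g05230 at 47.0, Cs8g10680 at 43.1 and Novel00392 at 40.5 FPKM. Cs3g05230 stood at 85.3 and 62.7 FPKM in control and at 27.9 FPKM in both aluminium libraries. Cs8g10680 stood at 42.4 and 69.0 FPKM in control and at 43.3 and 43.6 FPKM with aluminium. Its groups overlapped. Novel00392 stood at 8.39 and 7.76 FPKM in control and at 58.5 and 54.6 FPKM with aluminium. Novel00530 stood at 22.5 and 16.8 FPKM in control and at 28.0 and 30.8 FPKM with aluminium. The last 2 of these 5 thus had both aluminium libraries above both controls.

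**Figure D1:**
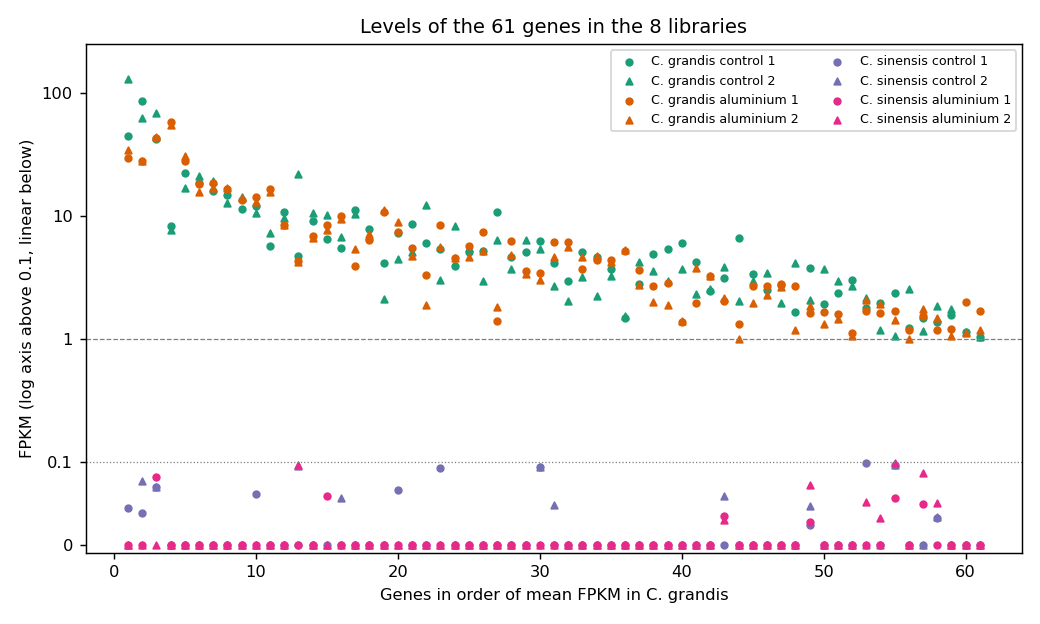
FPKM of each of the 61 genes (x axis, in order of mean level in C. grandis) in the 8 libraries (colours give the group, circles replicate 1 and triangles replicate 2). Dashed and dotted lines mark the bounds of 1 and 0.1 FPKM. The y axis is logarithmic above 0.1 and linear below. Means in C. grandis fall from 59.6 to 1.24 FPKM, and most C. sinensis points lie at 0.

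In C. sinensis the 61 genes together had 53 reads over 4 libraries, against 31860 reads in C. grandis. They were 14 and 17 reads in the control libraries and 6 and 16 reads in the aluminium libraries. No read at all was found in C. sinensis for 43 of the genes, 22 of the 35 with numbered IDs and 21 of the 26 with IDs of the form Novel00392. For these 43 genes a count of 0 over 4 libraries allows a level of 3 reads, which corresponds to between 0.0157 and 0.245 FPKM depending on length. Floors and intervals cover counting error alone, as PCR copies are not independent molecules. The other 18 genes had between 1 and 7 reads in all, 8 of them a single read, and at most 3 reads in a library.

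The bounds cut through a continuous range. Just inside the lower bound, Novel00799 and Novel00707 each had 1.003 FPKM in their lowest C. grandis library. Just outside it, orange1.1t02888 had 0.9993 FPKM and Novel00713 had 0.9966 FPKM. Just inside the upper bound, Cs2g13370 reached 0.09994 FPKM and Cs5g20180 reached 0.09918 FPKM in a C. sinensis library. Just outside it lay Novel00533 at 0.1121 FPKM and Cs5g24420 at 0.1143 FPKM. Below 505 bp a single read exceeds 0.1 FPKM in any C. sinensis library, so the 17 genes shorter than this had to have no read there. Of the 22 genes of at least 1000 bp, 10 had no read in C. sinensis.

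Forms of ID were unevenly represented in the set. IDs of the form Novel00392, which stand outside the numbered series, made up 26 of the 61 genes (42.6%). They made up 2.28% of the genes with at least 1 FPKM in each C. grandis library, 24.2% of the 330 genes of the reverse set and 2.94% of all IDs. Put the other way, 7.85% of the 331 IDs of this form that were read in C. grandis belonged to the set, against 0.247% of the 14166 numbered ones. The sources used here do not say how the submitters defined these IDs, and which species' reads they rest on was not tested. The other 35 genes carried IDs of the series Cs1g to Cs9g (27 genes) or orange1.1t (8 genes).

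The genes were also short. Lengths recovered from the FPKM ran from 162 to 3069 bp with a median of 754 bp, against 1770 bp for genes with at least 1 FPKM in each C. grandis library. Of the 61 genes, 39 (63.9%) were under 1000 bp, against 15.9% of those genes. The median was 645.0 bp for the 26 genes with IDs of the form Novel00392, 601.5 bp for the 8 orange1.1t genes and 1092 bp for the 27 genes of the Cs series. The 330 genes of the reverse set had a median of 903.0 bp. A difference in length by form of ID was seen among all expressed genes too: those of the form Novel00392 had a median of 939.0 bp.

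**Figure D2:**
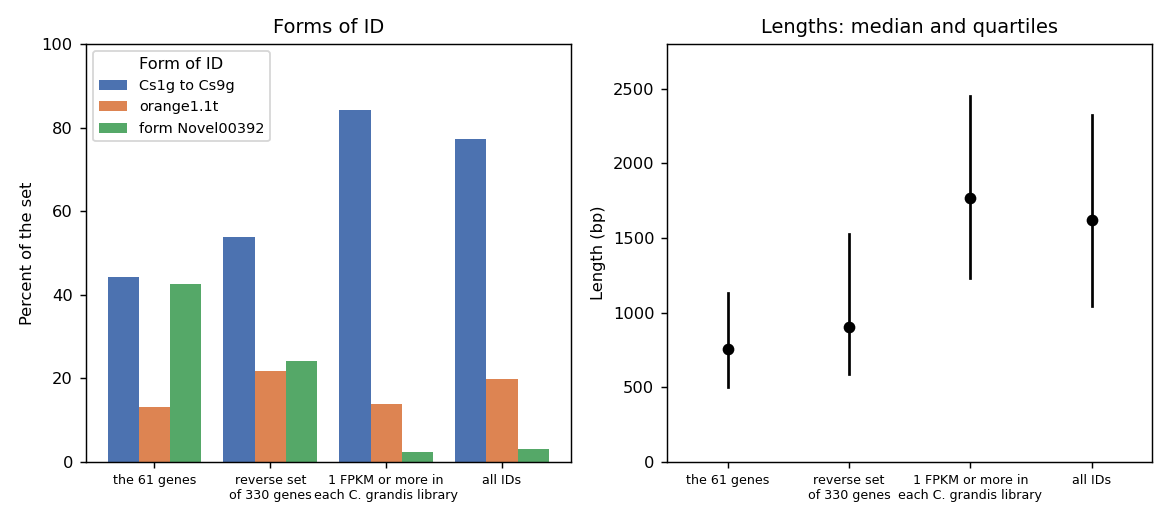
Left, percent of each set (y axis) that carries each form of ID, for the 61 genes, the 330 genes of the reverse set, the 14497 genes with at least 1 FPKM in each C. grandis library and all 30297 IDs. Right, median length in bp (points) with quartiles (lines) of the same sets, over IDs with a recovered length. IDs of the form Novel00392 are 42.6% of the 61 genes and 2.28% of the genes read in C. grandis.

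The levels of the 3 forms of ID overlapped within the set. Means in C. grandis ran from 1.24 to 50.9 FPKM among the Cs genes, from 2.55 to 59.6 FPKM among the orange1.1t genes and from 1.35 to 32.3 FPKM among those of the form Novel00392. At least 10 FPKM was reached by 3, 3 and 5 genes of these forms. Within a gene, the highest C. grandis library exceeded the lowest by a median of 1.91-fold and by 1.20-fold to 7.71-fold. All genes with at least 1 FPKM in each C. grandis library had a median of 1.49-fold. Counting error widens such ratios in genes with few reads, and genes of like depth were not compared. In 12 genes the 4 libraries stayed within 1.5-fold, and in 12 they were at least 3-fold apart.

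Part of this spread lay between the 2 control libraries. They were at least 2-fold apart for 9 of the 61 genes, 3 higher in replicate 1 and 6 higher in replicate 2, while the aluminium libraries were that far apart for 1 gene. In control these are 14.8% of the set, against 5.14% of genes with at least 1 FPKM in each C. grandis library. With aluminium the shares are 1.64% and 0.207%. The median size of the log2 ratio between the control libraries was 0.44 in the set, against 0.27 in those genes. Between the aluminium libraries it was 0.19 against 0.07. Over the 59 genes with at least 20 reads in a pair, a chi-square of the reads came to 26.6 per degree of freedom for the control pair, against 66.9 over all genes with at least 1 FPKM in each C. grandis library and as many reads. For the aluminium pair it came to 0.997, so for these genes the aluminium libraries differed by no more than counting error. Over all 14474 genes with at least 1 FPKM and enough reads, the aluminium pair gave 1.81 per degree of freedom. Such chi-square values grow with the reads per gene. As genes of the set were lower and shorter, these values do not compare its spread with that of all genes. The shares and log2 ratios above do not either, as counting error widens ratios in genes with few reads. The plan was to count the aluminium libraries as 1 sample if they differed by no more than counting error. That held over the 59 genes of the set, but not over all genes. They were kept as 2 samples, a choice on which the calls depend. The result with both counted as 1 is given beside the calls.

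The aluminium response within C. grandis was measured by the difference between its control and aluminium libraries, which the choice of genes did not use. The lower bound of 1 FPKM in every library does limit how far a gene of the set can fall. With limma on log2(FPKM + 1), fitted to all 15757 genes whose mean in C. grandis was 1 FPKM or more, 5 of the 61 genes rose and 6 fell at an adjusted p below 0.05. These 11 genes are 18.0% of the set, beside 17.1% called among all genes tested and 16.4% among genes with at least 1 FPKM in each C. grandis library. By direction, 8.36% of all genes tested rose and 8.76% fell, and 7.59% and 8.77% of genes with at least 1 FPKM in each C. grandis library. The share of the set that responded thus lay near that of other genes. The median log2 change was -0.10 in the set and -0.10 over all genes tested, and the median size of the change was 0.39 against 0.30. Counting error, larger in genes with few reads, and the added 1, which shrinks changes of low genes, both act on this size. Genes of like level were not compared.

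The largest rise was that of Novel00392. Its mean was 8.08 ± 0.442 FPKM in control leaves and 56.5 ± 2.76 FPKM in aluminium leaves (SD, n = 2). The log2 change was 2.66 (SE 0.10, limma adjusted p = 0.00122). Relative to library totals its reads were 7.02 times as many, and the exact Clopper-Pearson 95% counting interval was 6.10 to 8.12. The groups lay far apart beside the gap within each pair. In C. sinensis it had no read in either treatment. It was called in all 16 alternative settings, with limma adjusted p between 1.78e-08 and 0.0329.

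Cs3g05190 also rose, with means of 3.13 ± 1.44 FPKM in the controls and of 11.0 ± 0.311 FPKM with aluminium (SD, n = 2). Its log2 change was 1.59 (SE 0.27, limma adjusted p = 0.0268). Its libraries stood at 4.14 and 2.11 FPKM in control and at 10.8 and 11.2 FPKM with aluminium. The groups did not overlap, and the read ratio was 3.60 with a 95% counting interval of 2.97 to 4.39. The call was lost in 5 of 16 alternatives, with limma adjusted p from 4.06e-06 to 0.193.

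The largest fall was that of Novel00714, with means of 8.64 ± 3.12 FPKM in the controls and of 1.61 ± 0.291 FPKM with aluminium (SD, n = 2). Its log2 change was -1.85 (SE 0.27, limma adjusted p = 0.0192). Its libraries stood at 10.8 and 6.43 FPKM in control and at 1.41 and 1.82 FPKM with aluminium. Both aluminium libraries were near the lower bound of the set. Cs3g05230 also fell, with means of 74.0 ± 15.9 FPKM in the controls and of 27.9 ± 0.0274 FPKM with aluminium (SD, n = 2). Its log2 change was -1.36 (SE 0.17, limma adjusted p = 0.0135). In reads, control exceeded aluminium 2.63-fold for Cs3g05230 (95% counting interval 2.46 to 2.80) and 5.28-fold for Novel00714 (4.11 to 6.86). Each of these 2 calls was lost in 4 of 16 alternatives, with limma adjusted p up to 0.134 for Cs3g05230 and 0.147 for Novel00714.

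**Figure D3:**
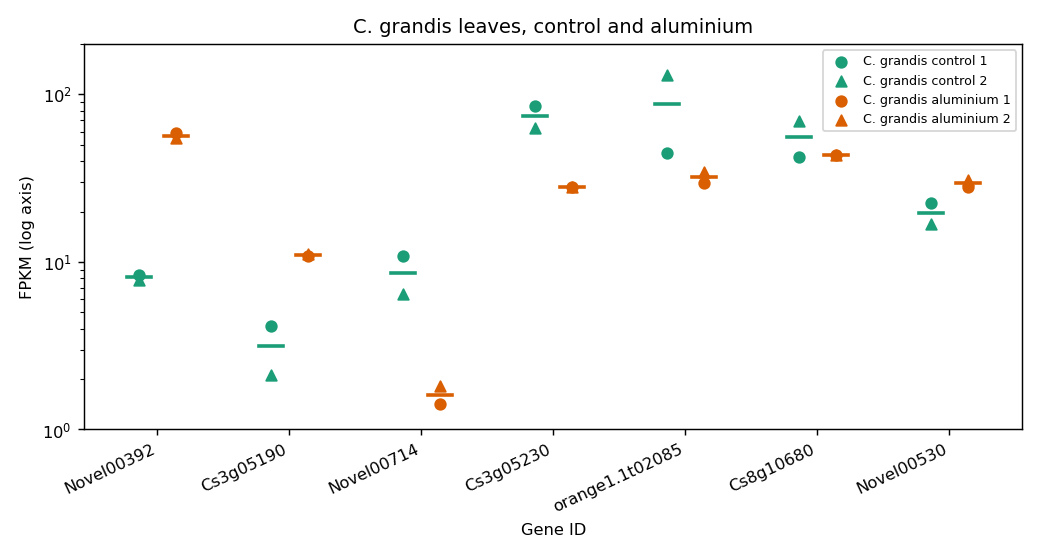
FPKM (y axis, logarithmic) in the 2 control and 2 aluminium libraries of C. grandis for the 2 named rises, the 2 named falls and the 3 further genes of highest mean level (x axis). Points are libraries and short lines are means of 2. The aluminium points of Novel00392 lie at 58.5 and 54.6 FPKM, above controls at 8.39 and 7.76, while those of Cs3g05230 both lie at 27.9 FPKM, below controls at 85.3 and 62.7.

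On the log2(FPKM + 1) scale the other 7 called genes had smaller changes than these leaders in their direction, down to 0.99 among the rises and -0.70 among the falls. The order of the falls depended on the added 1. With 0.5 or 0.1 added instead, another called gene, at -1.47 and -1.70, fell further than Cs3g05230, at -1.37 and -1.39. The 50 genes that were not called had log2 changes between -1.46 and 0.64. Among them was orange1.1t02085, at 87.1 ± 60.2 FPKM in control and 32.1 ± 3.26 FPKM with aluminium (SD, n = 2), a log2 change of -1.22 (SE 0.52, limma adjusted p = 0.172). Novel00530 had a log2 change of 0.57 (SE 0.17, limma adjusted p = 0.0851) and Cs8g10680 one of -0.31 (SE 0.25, limma adjusted p = 0.420). Both aluminium libraries lay above both controls in 17 of the 61 genes and below them in 23. The same held for 25.3% and 41.2% of all genes tested, and for 24.5% and 42.0% of genes with at least 1 FPKM in each C. grandis library.

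By form of ID, 2 genes rose and 2 fell among the 26 of the form Novel00392, and 3 rose and 4 fell among the 35 with numbered IDs. Among all 475 tested IDs of the form Novel00392, 58 rose and 36 fell. Of all 15757 genes tested, 8.36% rose and 8.76% fell. Differences between the forms were not tested.

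The number of calls changed with the libraries in the fit. With the aluminium libraries counted as 1 sample, limma called 1 rise and 0 falls in the set, beside 1.21% of all genes tested, with 11 of the 61 genes at an unadjusted p below 0.05. Without control replicate 1 it called 15 rises and 21 falls (56.0% of all genes tested), without control replicate 2 it called 8 and 17 (61.1%), and without aluminium replicate 1 or 2 it called 1 and 0 (1.21% and 1.25%). In these fits the lone library of a group is assumed to vary like the remaining pair.

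**Figure D4:**
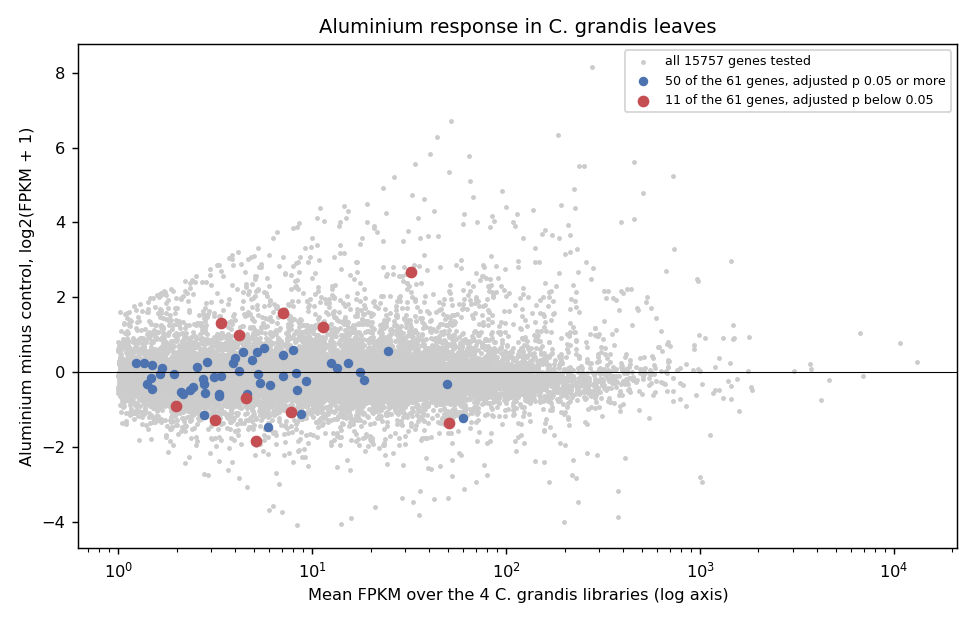
Difference between aluminium and control leaves of C. grandis on the log2(FPKM + 1) scale (y axis) against mean FPKM over the 4 C. grandis libraries (x axis, logarithmic). Grey points are all 15757 genes tested, blue points the 50 genes of the set that were not called and red points the 11 that were. The set lies between -1.85 and 2.66, within the range of the other genes.

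The numbering of the IDs was used to look for runs of neighbours. The sources used here do not say whether it follows the order of genes along a chromosome, and no coordinates were used. Among the 35 genes with IDs of the Cs and orange1.1t series, none was next to another gene of the set in the list of its series, and none was within 2 listed IDs. Within 5 listed IDs there was 1 pair. In the reverse set, 56 of 250 numbered genes (22.4%) were next to another of that set. The reverse set is larger, which makes neighbours likelier, and the difference was not tested.

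By series, Cs5g held 7 of the genes, Cs8g 5, Cs1g 4, Cs2g and Cs3g 3 each, Cs4g and Cs9g 2 each, Cs7g 1 and Cs6g none. These are 0.489% of the genes with at least 1 FPKM in each C. grandis library in Cs8g, 0.374% in Cs5g, 0.0583% in Cs7g and 0 of 1125 in Cs6g. All 9 Cs series held genes of the reverse set, 22 of them in Cs6g and 32 in Cs7g.

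The 3 pairs of consecutive numbers in the set all had IDs of the form Novel00392, a numbering that was added to the search after the values were seen. They make 6 of the 26 genes of this form (23.1%), against 12 of 80 in the reverse set, and this difference was not tested either. Novel00613 and Novel00614 had means of 13.4 and 2.43 FPKM in C. grandis. Novel00322 and Novel00323 had means of 11.3 and 4.41 FPKM. Novel00379 and Novel00380 had means of 7.09 and 8.23 FPKM, and Novel00382 stood 2 numbers further on. Novel00322 stood at 5.72 and 7.33 FPKM in control and at 16.5 and 15.8 FPKM with aluminium. Novel00323 stood at 4.13 and 2.70 FPKM in control and at 6.17 and 4.65 FPKM with aluminium. In both, each aluminium library lay above both controls, as in 25.3% of all genes tested. Novel00322 was called (log2 change 1.20, limma adjusted p = 0.0139). Novel00323 was not (log2 change 0.55, limma adjusted p = 0.176). The log2 changes of the other 4 genes of these pairs lay between -0.39 and 0.11.

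The 1 numbered pair within 5 listed IDs was Cs3g05190, a called rise, and Cs3g05230, a called fall. The 3 IDs between them, Cs3g05200, Cs3g05210 and Cs3g05220, were at 0 in all 8 libraries. On either side, Cs3g05180 was read in both species, at 8.26 and 8.20 FPKM in C. grandis control and 3.82 and 4.34 FPKM in C. sinensis control. Cs3g05240 was at 0.790 and 0.852 FPKM in C. sinensis control and at 0 and 0.119 FPKM in C. grandis control. With aluminium the members of the pair moved in opposite directions.

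The next 2 windows were chosen after their values were seen. Around orange1.1t02085, the 5 IDs before it and the 5 after it were all below 1 FPKM in every library. The sixth after it, orange1.1t02091, stood at 162 and 342 FPKM in C. grandis control and at 81.9 and 87.0 FPKM in C. grandis aluminium. It lay outside the set through C. sinensis control replicate 1, at 0.229 FPKM, and C. sinensis aluminium replicate 1, at 0.134 FPKM. The other C. sinensis libraries were at 0.0384 and 0 FPKM. In both IDs the second control library was the highest of the 4 C. grandis libraries.

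Cs9g06740 stood at 6.09 and 3.71 FPKM in C. grandis control and at 1.37 and 1.42 FPKM in C. grandis aluminium, with no read in C. sinensis. The ID before it, Cs9g06730, also had no read in C. sinensis and narrowly missed the set, at 2.38, 0.977, 1.11 and 1.25 FPKM in the C. grandis libraries. Cs9g06700 and Cs9g06710, which stand 4 and 3 IDs before it, went the other way between the species. In C. sinensis control they stood at 463 and 407 FPKM and at 437 and 392 FPKM. In C. grandis control they stood at 0.175 and 0.0768 FPKM and at 1.02 and 0.447 FPKM. IDs read mainly in C. grandis and IDs read mainly in C. sinensis thus lay within 4 numbers of each other.

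Genes of the reverse set were counted around every numbered gene. Cs9g06700 and Cs9g06710 do not belong to that set, as they exceeded 0.1 FPKM in C. grandis libraries. A gene of the reverse set lay within 5 listed IDs of 2 of the 35 numbered genes (5.71%), namely Cs4g15920 and orange1.1t06010, and of 5.94% of the 14131 other numbered genes with at least 1 FPKM in each C. grandis library. Cs4g15900, which is 2 IDs from Cs4g15920, stood at 12.7 and 10.8 FPKM in C. sinensis control and at 0.0275 and 0 FPKM in C. grandis control.

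**Figure D5:**
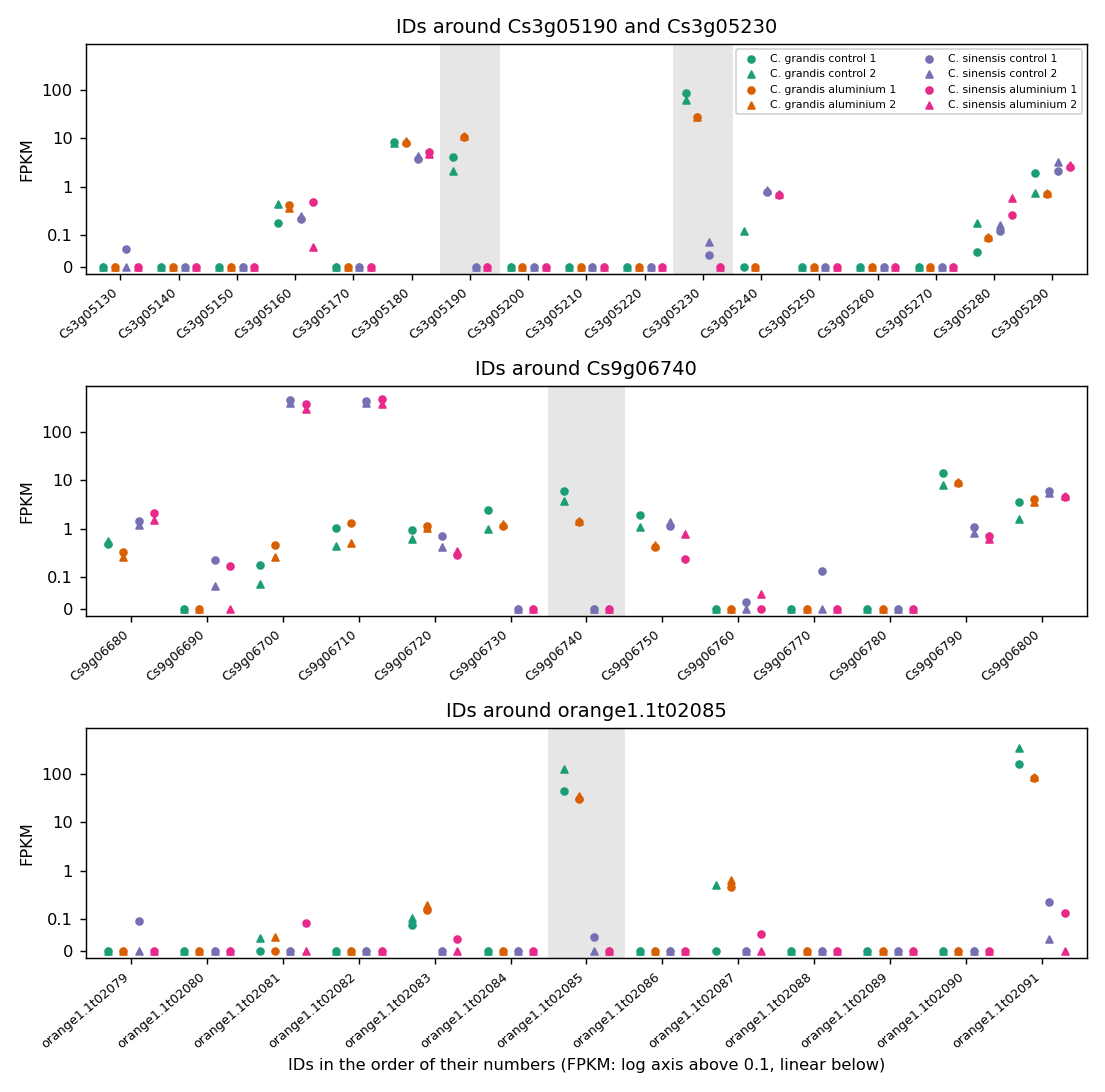
FPKM (y axes, logarithmic above 0.1 and linear below) of IDs in the order of their numbers (x axes) around Cs3g05190 and Cs3g05230 (top), Cs9g06740 (middle) and orange1.1t02085 (bottom), in each of the 8 libraries. Grey bands mark genes of the set. Cs9g06700 stands at 463 and 407 FPKM in C. sinensis control and at 0.175 and 0.0768 FPKM in C. grandis control, 4 IDs from Cs9g06740.

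The IDs next to the 35 numbered genes were not chosen by their own values, so the species could be compared in them. There were 70 such IDs. Of these, 23 (32.9%) were at 0 in all 8 libraries, against 23.4% of all numbered IDs, and 23 (32.9%) reached 1 FPKM in each C. grandis library, against 48.2% of all numbered IDs. With limma on all 8 libraries, 23 of the neighbours had a mean of at least 1 FPKM and were tested. In control leaves 7 of them were higher and 1 was lower in C. grandis at an adjusted p below 0.05, beside 29.9% and 18.9% of all 16327 genes tested. In aluminium leaves 5 were higher and 2 were lower, beside 19.0% and 20.3%. As shares of the 23 neighbours, 30.4% were higher and 4.35% lower in control leaves. In aluminium leaves the shares were 21.7% and 8.70%. With up to 5 IDs on either side, 31.7% of 139 neighbours were higher and 19.4% lower in control leaves, close to the shares of all genes.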

How the data were processed

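Leaf RNA of both species was sequenced in 8 libraries, 2 per group, and grouped by the labels. The authors deposited FPKM per gene ID. Bowtie and TopHat2, HTSeq and edgeR 1.18.0 were used, per the submitters' processing notes. The sources used here give no genome build or annotation. Because 1 list of IDs served both species, reads of a species that were not placed lower its values. FPKM values were whole multiples of the value of 1 read, from which reads, lengths and library totals were recovered. These recovered reads served for intervals, floors and an alternative fit. Depth was thus 16443205 to 19794247 reads, which leaves genes of low level with few reads and wide counting intervals.

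The genes and the lists were chosen with earlier results of these data known. The aluminium test was limma 3.58.1 in R 4.3.3 (eBayes with trend, two-sided, Benjamini-Hochberg) on log2(FPKM + 1) of the 4 C. grandis libraries, over genes with a mean of at least 1 FPKM. With the added 1, fold changes of low genes are understated. The C. sinensis libraries were left out because their values near 0 carry no spread. Neighbouring IDs were tested likewise with all 8 libraries. The fits and the recovery of reads were tested on simulated data. There control and aluminium libraries had the same spread beyond counting error, unlike the C. grandis pairs here. The simulation therefore does not test the calls under that difference. Named genes were the 2 largest called rises and falls by log2 change with groups apart and the higher group averaging 5 FPKM or more, the 5 highest means, the 3 pairs of consecutive numbers, and the 2 IDs on either side of each bound. Other windows were chosen after their values were seen. Alternatives were bounds, pseudocounts, filters, scalings, voom, the replicate number as a block and the omission of single libraries. Marker and function lists could not be used without gene names. P-values rest on the spread between the 2 pools of a group. In C. grandis this spread lay mainly in the control pair. Over genes with at least 1 FPKM in each C. grandis library, a chi-square of reads gave 66.9 per degree of freedom in control. With aluminium it gave 1.81. The p-values of the aluminium test thus reflect little spread between the aluminium pools.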

Additional observations from a re-analysis of the deposited data

How the results depend on the processing

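The number of genes in the set followed its bounds. It was 110, 38 and 16 with at least 0.5, 2 and 5 FPKM in C. grandis and 156 with below 0.5 FPKM in C. sinensis, and it lay between 65 and 76 when single libraries were left out. Numbered genes next to another of the set numbered 2 within 5 IDs, 2 among IDs with at least 1 FPKM in some library and 2 with at least 0.5 FPKM in C. grandis. With the IDs of the form Novel00392 as a further series, chosen after seeing the data, they numbered 6. For aluminium, limma called 2 rises and 0 falls with the aluminium libraries counted as 1 in a fit of all groups (17 genes of the set at an unadjusted p below 0.05), 1 and 0 with them counted as 1 in C. grandis alone (11 genes), and 3 and 2 among the 51 genes with a mean of at least 1 FPKM over 8 libraries. With voom it called 5 and 3. Of all genes tested, 12.9% were called with the filter over 8 libraries and 16.8% with voom. The shares of the set were 9.80% and 13.1%. Leaving out single libraries gave 1 to 15 rises and 0 to 21 falls. Other settings gave 4 to 6 rises and 4 to 9 falls. None of the 11 called genes changed direction in any setting, and all but Novel00392 lost the call in some, where the cause was not tested. Control and aluminium libraries did not overlap in any of the 11. Omitting a library, averaging a pair or changing the pseudocount could therefore not reverse a direction. Median centring moved the median log2 change of all genes from -0.10 to -0.04 and gave 6 rises and 5 falls. These are 18.0% of the set, beside 15.7% of all genes tested. The replicate 1 minus 2 differences of C. grandis control and aluminium had a correlation over genes of 0.02. The aluminium pair differed little beyond counting error, so this value cannot show whether the replicate numbers share more than a number. With the replicate number as a block, limma called 5 rises and 9 falls, and among neighbouring IDs 7 higher and 1 lower in control leaves. In aluminium leaves the block gave 6 higher and 2 lower (26.1% and 8.70%, against 17.6% and 19.0% of all genes). Among neighbouring IDs, omitting the filter on low values raised those tested to 47. Of these, 15 were higher and 3 lower in control leaves (31.9% and 6.38%, against 22.5% and 15.9% of all genes). With aluminium 10 were higher and 4 lower (21.3% and 8.51%, against 15.1% and 16.7%). Median centring gave 4 higher in control leaves. In aluminium leaves 1 was lower with only the 4 libraries compared and 1 with quantile normalization. With up to 2 IDs on either side 47 were tested, of which 17 were higher and 6 lower in control leaves (36.2% and 12.8%) and 12 and 8 with aluminium (25.5% and 17.0%). With up to 5 IDs 139 were tested, of which 44 were higher and 27 lower in control leaves (31.7% and 19.4%) and 30 and 30 with aluminium (21.6% each). The shares of all genes in these fits are 29.9% and 18.9% in control leaves and 19.0% and 20.3% with aluminium. Leaving out single libraries gave 5 to 9 higher and 0 to 1 lower in control leaves. In aluminium leaves it gave 1 to 6 higher and 0 to 2 lower. Depth limits the genes with under 100 reads and the short genes, where 1 read exceeds the upper bound.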
